A study of Rattus norvegicus with 9 samples.

Results

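The abundant noncoding RNAs described here are 159 of the 23953 genes counted in RNA-seq libraries of differentiating neural stem cells (NSCs). They were chosen by their measured level: each is listed as noncoding in the gene table, has a mean count of at least 200 over all 9 libraries, and is neither H19, Meg3 nor a gene named for a ribosomal protein. Of 6653 noncoding genes, 161 reached that count before H19 and Meg3 were left out, so the members are 2.39% of the noncoding genes, whereas 60.1% of the 17300 protein-coding genes reached it. Because the counts chose the members, how high their levels are is given as a description and was not tested. Only differences between groups were tested. Just inside the threshold were 6720473M11Rik with a mean count of 201 and Gm2061 with 203, and just outside were Gm45441 with 198 and D430020J02Rik with 197.

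The NSCs came from spinal cords of neonatal rats and were all kept in differentiation medium, a condition that the control shares. The Con group (3 libraries) received nothing more. The Exo group (3 libraries) was given exosomes, small vesicles shed by cells, from bone marrow mesenchymal stem cells (BMSCs), which per the methods carried an empty lentiviral vector. The pLV-Exo-Wnt5a group (3 libraries) was given exosomes from BMSCs transduced with a lentivirus for rat Wnt5a, a secreted Wnt ligand. Con thus differs from pLV-Exo-Wnt5a in both the exosomes and Wnt5a, and RNA carried in by exosomes cannot be told apart from RNA made by the NSCs. The design compares Exo with Con, pLV-Exo-Wnt5a with Exo, and pLV-Exo-Wnt5a with Con. Any pair of these comparisons shares the libraries of 1 group.

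A long noncoding RNA is transcribed like a messenger RNA but is not translated into a known protein. Some act in the nucleus, where Xist coats and silences an X chromosome, Neat1 builds the nuclear bodies called paraspeckles and Malat1 gathers at splicing-factor speckles. Others are precursors, since snoRNA host genes carry in their introns the small RNAs that guide chemical modification of ribosomal RNA, and microRNA host genes release the hairpins of short RNAs that repress messenger RNAs. In the nervous system many lie beside a developmental transcription factor gene, as Pantr1 does beside Pou3f3 and Sox2ot around Sox2.

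Some members bear the names of such precursors. Of the members, Mir9-3hg, Mir100hg and Mir124a-1hg are named for microRNAs, and their mature products were not measured in these libraries. The sequences below are RefSeq entries of rat build GRCr8, written 5′ to 3′ with the seed, bases 2 to 8, in capitals, and are shown because the seed sets which messages such an RNA can pair with. Mir9-3hg is the host of miR-9, a microRNA of neural progenitors, at chr1:142849415-142849437 and chr1:142849454-142849475 on the plus strand.
rno-miR-9a-5p: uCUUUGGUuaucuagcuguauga
rno-miR-9a-3p: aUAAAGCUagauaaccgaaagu
Mir100hg is the host of miR-100 and let-7a, of which let-7 promotes the exit from the progenitor state. They lie on the plus strand at chr8:50798307-50798328 and chr8:50798342-50798360 for miR-100, and chr8:50805219-50805240 and chr8:50805264-50805285 for let-7a.
rno-miR-100-5p: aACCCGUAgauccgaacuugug
rno-miR-100-3p: cAAGCUUGugucuauaggu
rno-let-7a-5p: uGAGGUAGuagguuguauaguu
rno-let-7a-2-3p: cUGUACAGccuccuagcuuucc
No pair of these 6 sequences shares a seed. The link of the sequences to the counted hosts rests on the names. The genes of the count table carry mouse symbols and mouse gene numbers although the labels give rat cells, and the genome used is not given in the sources used here, so how rat reads were counted on mouse-named genes, and its part in the levels below, was not tested. Of the 159 members, 10 had a rat RefSeq gene of the same symbol (Mir9-3hg, Snhg11, Cep83os, Pvt1, Pantr1, Lppos, Miat, Gas5, Kantr and Xist). For Mir124a-1hg, a host of the neuronal microRNA miR-124, no sequence is shown.

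By their names, 70 members are RIKEN clone genes, 30 are Gm gene models, 16 are named as transcripts that run opposite to or overlap another gene, 14 are snoRNA hosts, 3 are microRNA hosts, 2 carry LOC numbers, 1 is a pseudogene and 23 have other names. For 135 members (84.9%) the table held no Gene Ontology term beyond the 3 root terms, against 7.12% of protein-coding genes, and none had a KEGG or Reactome pathway. The strand setting of the counting is not given in the sources used here, so reads of the 16 opposite or overlapping transcripts cannot be told apart from those of their partner genes.

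The libraries held 32765138 to 40427647 counts, which puts 3 counts at 0.0742 to 0.0916 CPM (counts scaled to library size, with TMM factors). No member fell below 116 counts in any library. Con replicate 1 stood apart from the other libraries: it held the highest value of 28.3% and the lowest value of 28.0% of all tested genes. Of the lists of cell type markers, those of neural stem cells, neurons, astrocytes and the oligodendrocyte lineage summed to between 2582 and 8586 CPM in every library, and those of microglia to between 6.84 and 14.9 CPM. The 4 spinal cord Hox genes found in the table, of 10 listed, summed to at most 0.0510 CPM, whereas the forebrain list summed to between 559 and 684 CPM, so the position markers of the labelled tissue were at or near 0. Nothing in the labels says whether the 3 libraries of a group came from separate cultures, so p-values measure the spread between these libraries, which may be technical.

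Reads were spread very unevenly over the members. Gm26917, an uncharacterised mouse gene model, took 56.7% of all member counts, the 3 members with the most counts took 65.5% and the first 10 took 77.5%. Its mean count of 236442 was 12.04 times that of Miat, the next member, and was rank 4 among all genes. These are read counts that are not divided by transcript length, so they order reads and not molecules. Gm26917, Miat, 5930403L14Rik, Rian, Norad, Peg13, Gm3764, 4933431E20Rik, C130071C03Rik and Pantr1 made up the first 10. In all, 33 members had a mean count of 1000 or more, 31 lay between 500 and 1000, and 95 lay between 200 and 500, with a median of 377.

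The share of a library's counts that fell on the members was lower with Wnt5a exosomes, and Gm26917 carried that difference. The members held 1.26%, 1.05% and 1.24% of the counts in the Con libraries, 1.29%, 1.51% and 0.958% in the Exo libraries, and 0.861%, 0.881% and 0.713% in the pLV-Exo-Wnt5a libraries. The 3 pLV-Exo-Wnt5a values lay below all 6 others. In the two-sided exact permutation test p was 0.1 for pLV-Exo-Wnt5a against Exo and 0.1 against Con, the smallest value 3 against 3 libraries can give, and 0.8 for Exo against Con. Without Gm26917 the other 158 members held between 0.426% and 0.490% of the counts in every library, with group means of 0.463% ± 0.0333 in Con, 0.475% ± 0.0145 in Exo and 0.471% ± 0.0146 in pLV-Exo-Wnt5a (SD, n = 3 each). For these the exact permutation p was 0.7, 0.7 and 0.9, so a difference between groups was not detected.

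**Figure D1:**
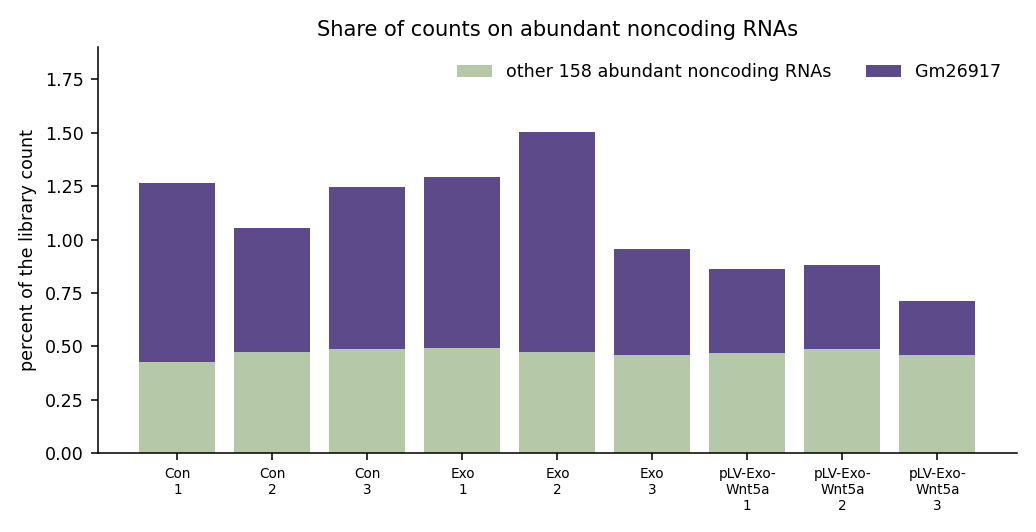
Stacked bars give the percent of each library's total count (vertical axis, from 0) that fell on Gm26917 and on the other 158 abundant noncoding RNAs, for the 9 libraries on the horizontal axis. The lower part stays between 0.426% and 0.490%, while the Gm26917 part goes from 0.256% to 1.03%.

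Gm26917 was lower in every pLV-Exo-Wnt5a library than in any other. Its level was 8814, 5774 and 7481 CPM in the Con libraries, 7922, 10205 and 4979 CPM in the Exo libraries, and 3923, 3933 and 2511 CPM in the pLV-Exo-Wnt5a libraries. The last group did not overlap either of the others, while Con and Exo overlapped. The log2 fold change (log2FC) was -1.15 ± 0.23 (SE) for pLV-Exo-Wnt5a against Exo, 2.22-fold lower, with Q = 0.0632, the p of the edgeR quasi-likelihood test after Benjamini-Hochberg adjustment over all genes. Against Con it was -1.09 ± 0.18, 2.13-fold lower, with Q = 0.0710, and for Exo against Con it was 0.07 ± 0.23 with Q = 0.896. Both Q values of the lower level therefore missed 0.05 in edgeR. In DESeq2 they were 0.0331 and 4.53e-07, and over all alternatives Q ran from 3.30e-06 to 0.292 against Exo and from 4.62e-10 to 0.277 against Con, with the log2FC below 0 in each.

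Gm15564, another uncharacterised gene model, followed the same order at a far smaller count. It was at 23.8, 19.9 and 24.2 CPM in Con, at 24.2, 30.2 and 15.97 CPM in Exo, and at 11.1, 14.6 and 8.67 CPM in pLV-Exo-Wnt5a. Again the pLV-Exo-Wnt5a libraries lay below all others. The log2FC was -1.03 ± 0.23 against Exo with Q = 0.0860 and -0.98 ± 0.18 against Con with Q = 0.129 in edgeR. In DESeq2 the Q values were 0.000617 and 0.000107. Over all alternatives Q ran from 0.00029 to 0.383 against Exo and from 0.000107 to 0.534 against Con. From library to library Gm26917 varied 4.06-fold and Gm15564 3.48-fold, while the ratio of their counts stayed between 269 and 370, a 1.37-fold range. The submitters' notes name RSEM, which divides reads that match several genes between them, but not which step made the deposited counts, so whether the pair holds some of the same reads was not tested. Of 14 listed structural RNAs, 1 was in the table, and the ribosomal RNA genes Rn45s, Rn18s and Rn28s1 were absent. How much ribosomal RNA the libraries held was thus not measured. Its part in the levels of Gm26917 and Gm15564 was not tested.

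**Figure D2:**
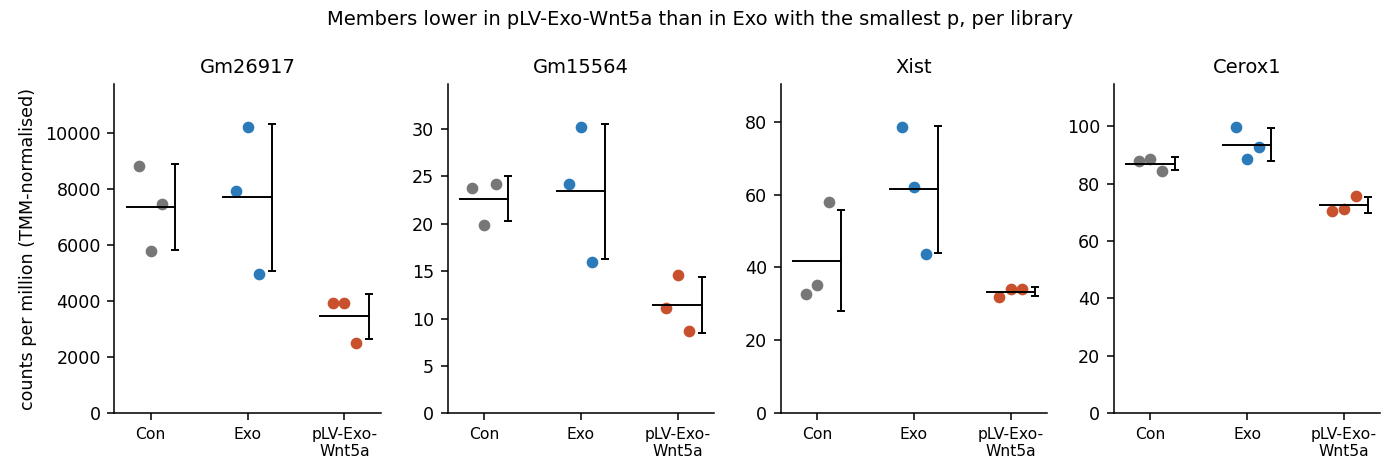
Points are CPM (TMM-normalised, vertical axes from 0) of Gm26917, Gm15564, Xist and Cerox1 in the 3 libraries of each group, with the mean as a line and the SD as a bar. In each panel all 3 pLV-Exo-Wnt5a points lie below all 3 Exo points, and for Gm26917, Gm15564 and Cerox1 also below all 3 Con points.

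With exosomes alone, the members differed little from medium, and none reached the study's threshold, which asks for Q below 0.05 and a change of more than 2-fold in either direction. Of the 15070 genes tested, 0.00664% did. The paper, which used DESeq2, reported more differential genes than this, here and in pLV-Exo-Wnt5a against Exo, and the reason was not tested. In the present data DESeq2 called no member either. A looser rule, which the paper also states for pLV-Exo-Wnt5a against Exo, asked for p below 0.05 before adjustment and a log2FC beyond 0.58 in size. By it, 5 members were higher in Exo, beside 3.56% of all genes, and 1 was lower, beside 0.909% of all genes. An unadjusted p under 0.05 was reached by 21 members, 11 higher and 10 lower, which is 13.2% against 14.9% of all genes, with 1344 higher and 905 lower. The median log2FC was -0.05 over the members and 0.00 over all genes. Of the members 64 were higher and 95 lower, beside 7583 and 7487 of all genes. Libraries of the groups did not overlap for 38 members (23.9%), close to the 23.3% of all genes.

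Kantr, a transcript named for its place next to the histone demethylase gene Kdm5c, had the largest difference in this comparison. It stood at 6.36, 9.83 and 15.6 CPM in Con and at 27.7, 16.7 and 18.9 CPM in Exo. No Exo library was below a Con library. The log2FC was 1.00 ± 0.29 with Q = 0.265 in edgeR. Leaving out Con replicate 1 gave a log2FC of 0.73 and leaving out Con replicate 3 gave 1.38, which were the extremes over all alternatives. Its Q was under 0.05 in 2 of 13 alternatives, at 0.00773 with no filter and 0.0245 without Con replicate 3. In the latter Kantr passed the study's threshold. The clone genes C230034O21Rik (log2FC 0.76 ± 0.23), A830082K12Rik (0.59 ± 0.19) and 9130024F11Rik (0.59 ± 0.19) were likewise higher in all 3 Exo libraries than in any Con library, each with Q between 0.265 and 0.267. All 3 fell short of the looser rule when Con replicate 1 was left out, at 0.52, 0.42 and 0.41, as did A830082K12Rik without Exo replicate 2 (0.55) and 9130024F11Rik without Exo replicate 3 (0.53). Gt(ROSA)26Sor, the noncoding gene of the locus widely used to insert transgenes, was the fifth, with a log2FC of 0.96 ± 0.38 and overlapping groups. It was 0.43 without Exo replicate 1, and its call was also lost on leaving out Con replicate 1 (0.70) or Con replicate 2 (0.92), with the replicate block (0.88) and in DESeq2 (0.96).

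Among the members lower in Exo, Gm14230 alone passed the looser rule. It was at 8.39, 7.70 and 7.42 CPM in Con and at 5.77, 4.05 and 4.74 CPM in Exo, with no overlap, a log2FC of -0.69 ± 0.18 and Q = 0.265. In DESeq2 its Q was 0.0472, and without Exo replicate 2 its log2FC was -0.577, just short of the looser rule. Gm19554 was at 28.7, 27.2 and 24.8 CPM in Con and at 18.1, 19.8 and 20.6 CPM in Exo, a log2FC of -0.46 ± 0.11. The groups of Gm19554 did not overlap either, and its Q was 0.265 in edgeR and 0.0348 in DESeq2, the single alternative in which it was under 0.05. Prdm16os, named as the transcript opposite the transcription factor gene Prdm16, had a log2FC of -0.33 ± 0.10 without overlap.

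Miat, Rian and Norad, which are among the first 10 members, also separated Exo from Con, by less than the looser rule asks. So did 5930403L14Rik, Gm3764 and Pantr1 of the first 10, with smaller log2FC of -0.11, -0.19 and -0.14. Miat, a nuclear RNA enriched in neural tissue, was at 527, 609 and 575 CPM in Con and 453, 450 and 483 CPM in Exo, a log2FC of -0.30 ± 0.08 with Q = 0.265. Rian, an RNA of the imprinted Dlk1-Dio3 region that hosts snoRNAs, was at 237, 294 and 331 CPM in Con and 363, 375 and 368 CPM in Exo, a log2FC of 0.36 ± 0.11 with Q = 0.265, and of 0.23 without Con replicate 1. Norad, which binds Pumilio proteins, was at 144, 224 and 231 CPM in Con and 273, 278 and 268 CPM in Exo, a log2FC of 0.45 ± 0.15 with Q = 0.275, and of 0.26 without Con replicate 1. For Miat, Rian and Norad the Exo libraries lay close together, and for Rian and Norad the lowest of all 9 values was that of Con replicate 1. The number of members past the looser rule was 2 in place of 6 when Con replicate 1 was left out, and 15 when Con replicate 3 was left out.

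**Figure D3:**
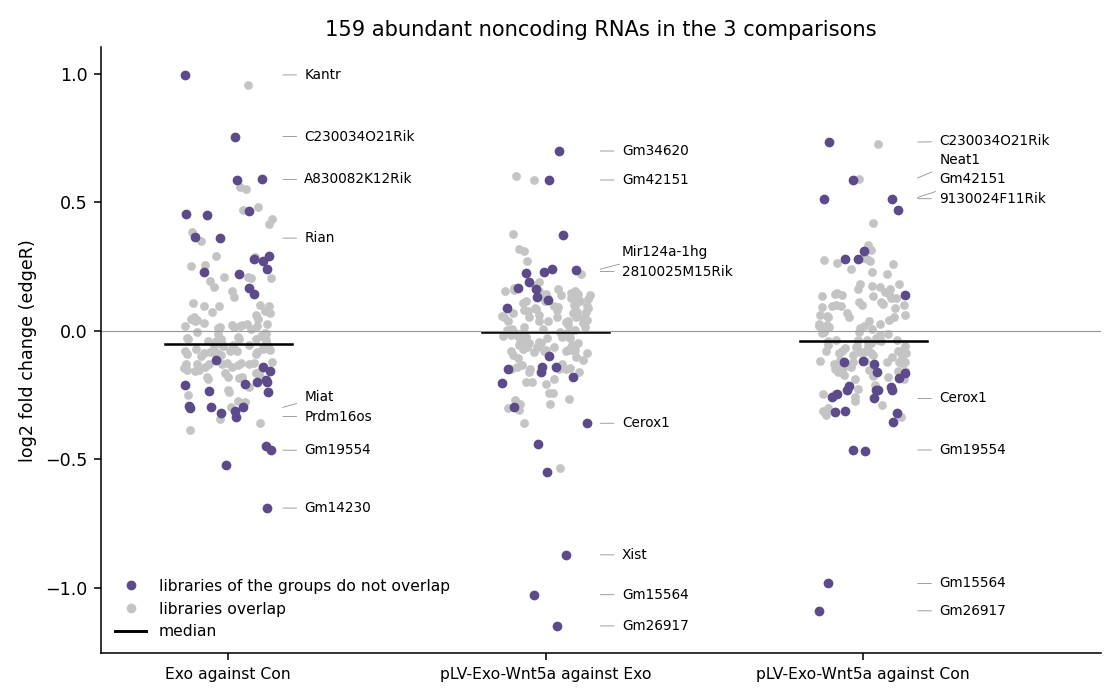
Each point is the edgeR log2 fold change (vertical axis) of 1 of the 159 members in the comparison on the horizontal axis, darker where the 3 libraries of one group do not overlap the 3 of the other, with the median as a line. The medians lie at -0.05, -0.00 and -0.04, and Gm26917 and Gm15564 lie lowest in both comparisons with pLV-Exo-Wnt5a.

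Between Wnt5a exosomes and exosomes without it, the 3 members with the smallest p were lower in pLV-Exo-Wnt5a, and none reached Q under 0.05 with the fold change asked. Of 15132 tested genes, 0.159% did. At the looser rule 4 members were higher, beside 1.51% of all genes, and 3 were lower, beside 1.98% of all genes. An unadjusted p under 0.05 was reached by 16 members (10.1%, against 11.97% of all genes), 7 higher and 9 lower, beside 767 and 1045 of all genes. The median was -0.00 over the members and 0.00 over all genes. Of the members 79 were higher and 80 lower, beside 7776 and 7356 of all genes. Libraries did not overlap for 27 members (16.98%), beside 16.5% of all genes. DESeq2 called 2 members, Gm26917 and Gm15564.

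Cerox1, an RNA known to raise the messages of mitochondrial complex I subunits, had the smallest Q of the members, 0.0506. It was at 99.6, 88.5 and 92.7 CPM in Exo and at 70.5, 71.3 and 75.6 CPM in pLV-Exo-Wnt5a, and at 87.9, 88.6 and 84.2 CPM in Con. The pLV-Exo-Wnt5a libraries lay below all 6 others with little spread in any group. The log2FC was -0.36 ± 0.07 against Exo, 1.28-fold lower, and -0.26 ± 0.08 against Con with Q = 0.488. Its Q against Exo ran from 0.000435 in DESeq2 to 0.194 without pLV-Exo-Wnt5a replicate 1.

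Xist, the RNA that coats the inactive X chromosome, was at 78.5, 62.1 and 43.6 CPM in Exo and at 31.8, 34.1 and 34.0 CPM in pLV-Exo-Wnt5a. The Exo libraries lay above the pLV-Exo-Wnt5a libraries but far from each other, and the Con libraries, at 32.7, 35.1 and 57.9 CPM, overlapped both. The log2FC was -0.87 ± 0.16, 1.83-fold lower than in Exo, with Q = 0.0543, and it was -0.66 without Exo replicate 1. Its Q was 3.30e-05 in DESeq2 and 0.0391 with the replicate block, and over all alternatives it ran from 2.71e-05 with no filter to 0.268 without Exo replicate 2. Jpx and Ftx, neighbouring RNAs of the X inactivation centre, had log2FC of -0.27 ± 0.18 and -0.07 ± 0.33 against Exo, and neither passed the looser rule in any comparison. The sex of the rats the cells came from is not in the labels. In its section on animals the paper states that only male rats were used, without naming the neonatal rats.

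On the higher side, Gm34620 was at 4.59, 4.89 and 4.49 CPM in Exo and at 6.59, 7.91 and 8.07 CPM in pLV-Exo-Wnt5a, a log2FC of 0.70 ± 0.15 with Q = 0.0753 in edgeR and 0.00251 in DESeq2. In Con it was at 9.31, 5.29 and 5.51 CPM, above all Exo libraries (-0.52 ± 0.23 for Exo against Con) and overlapping pLV-Exo-Wnt5a (0.16 ± 0.23). Gm42151 was at 6.15, 6.51 and 4.90 CPM in Exo and at 7.65, 7.75 and 10.8 CPM in pLV-Exo-Wnt5a, a log2FC of 0.59 ± 0.18 with Q = 0.212. In neither did Exo and pLV-Exo-Wnt5a overlap. Gm42151 fell under the looser rule without pLV-Exo-Wnt5a replicate 3 (0.40) or Exo replicate 3 (0.47), with the replicate block (0.576) and with all 9 libraries in a fit (0.573). Neat1 and Gm14230 also passed the looser rule, at 0.59 ± 0.20 and 0.60 ± 0.21, but with overlapping libraries, and Neat1 lost that call without Exo replicate 2 (0.50), Exo replicate 3 (0.46) or pLV-Exo-Wnt5a replicate 3 (0.41) and with all 9 libraries in a fit (0.57). Gm14230 lost it without Exo replicate 2 (0.48) or pLV-Exo-Wnt5a replicate 3 (0.37). The clone gene 2810025M15Rik (log2FC 0.23 ± 0.08) and Mir124a-1hg (0.24 ± 0.09) were higher without overlap, the latter by 0.15 without pLV-Exo-Wnt5a replicate 2.

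Against medium alone, pLV-Exo-Wnt5a had no member at Q under 0.05 with the fold change asked, beside 0.0663% of 15089 genes, and DESeq2 called Gm26917. At the looser rule 3 members were higher, beside 1.46% of all genes, and 2 were lower, beside 0.696% of all genes. An unadjusted p under 0.05 was reached by 17 members (10.7%, against 8.35% of all genes), 8 higher and 9 lower, beside 634 and 626 of all genes. The median was -0.04 over the members and 0.00 over all genes. Of the members 66 were higher and 93 lower, beside 7663 and 7426 of all genes. Libraries did not overlap for 32 members (20.1%), beside 16.6% of all genes, and of these members 9 were higher and 23 lower. Neat1, the scaffold of paraspeckles, was at 6.12, 5.75 and 7.26 CPM in Con and at 9.11, 8.02 and 11.6 CPM in pLV-Exo-Wnt5a. Its groups did not overlap, and the log2FC was 0.59 ± 0.18 with Q = 0.481. The looser call of Neat1 was lost with the replicate block (0.578) and on leaving out pLV-Exo-Wnt5a replicate 3 (0.43), Con replicate 1 (0.56) or Con replicate 2 (0.52). C230034O21Rik was higher without overlap (log2FC 0.73 ± 0.23, Q = 0.492, and 0.50 without Con replicate 1, short of the looser rule), as were Gm42151 (0.51 ± 0.19, and 0.34 without pLV-Exo-Wnt5a replicate 3) and 9130024F11Rik (0.51 ± 0.20, and 0.34 without Con replicate 1). Kantr (0.73 ± 0.28) passed the looser rule with overlapping groups. Its log2FC was 1.11 without Con replicate 3, and the call was lost in DESeq2 (0.72) and on leaving out Con replicate 1 (0.46), Con replicate 2 (0.68) or pLV-Exo-Wnt5a replicate 1 (0.48). Besides Gm26917 and Gm15564, Gm19554 (-0.46 ± 0.13) and Cerox1 were lower without overlap.

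The looser rule was passed by 3.77%, 4.40% and 3.14% of members in the 3 comparisons in the order above, and by 3.00%, 1.49% and 0.731% of the 10397 coding genes with a mean count of 200 or more. These are 6, 7 and 5 members. The coding genes were deeper than the members, with 6628 of them but 33 members at a mean count of 1000 or more, and the difference was not tested.

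Of 22 listed hosts 21 were in the table and 14 were members: Gas5, Zfas1, Epb41l4aos and 11 genes of the Snhg series. None of the 20 tested passed the looser rule in any comparison, with medians of -0.07, -0.00 and -0.08. So few of all genes passed it, at most 3.56% in a direction, that a count of 0 in a list of this size, here or for the lists below, does not set the list apart from all genes. Gas5, which accumulates in cells that stop growing, ranged from 52.3 to 59.7 CPM over the 9 libraries, and its log2FC lay between -0.01 and 0.01 in the 3 comparisons. Snhg6 ranged from 17.5 to 20.6 CPM, and Snhg1 from 16.5 to 24.02 CPM. Snhg11 had the widest range of the 14, from 48.7 CPM in Con replicate 1 to 109 CPM in pLV-Exo-Wnt5a replicate 2. Of 13 listed proteins of snoRNA particles, which bind the released snoRNAs, none passed the looser rule either, and medians were -0.05, 0.01 and -0.03. Host RNAs such as Gas5 are degraded by nonsense-mediated decay, and of 14 listed factors of that pathway none passed.

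Of 9 listed nuclear-retained RNAs, 8 were in the table and Miat, Malat1, Xist, Neat1 and Gm26917 were members, the last a gene model placed on the list without a known role. Malat1 ranged from 30.2 CPM in Con replicate 1 to 110 CPM in Exo replicate 1, and its other libraries lay between 39.3 and 68.6 CPM. Its groups overlapped in every comparison, and its log2FC was 0.48 ± 0.35, -0.53 ± 0.29 and -0.06 ± 0.24 in the order above. Neat1, its neighbour in the genome, was highest in pLV-Exo-Wnt5a replicate 3, at 11.6 CPM. None of 13 listed paraspeckle proteins passed the looser rule in any comparison.

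Of the microRNA hosts, Mir9-3hg and Mir124a-1hg varied 1.26- and 1.37-fold over the 9 libraries and Mir100hg 1.54-fold, where the median member varied 1.46-fold. Mir9-3hg was at 78.1, 76.3 and 83.1 CPM in Con, 75.2, 72.1 and 65.7 CPM in Exo, and 70.8, 72.5 and 73.8 CPM in pLV-Exo-Wnt5a. Con lay above both other groups, by a log2FC of -0.16 ± 0.09 for Exo and -0.13 ± 0.08 for pLV-Exo-Wnt5a, with Q of 0.392 and 0.679 in edgeR. Mir124a-1hg was at 32.6, 30.2 and 34.7 CPM in Con, 31.8, 28.3 and 28.9 CPM in Exo, and 33.3, 38.7 and 32.2 CPM in pLV-Exo-Wnt5a. Mir100hg ranged from 15.7 to 24.2 CPM, with its groups overlapping in every comparison. Of 17 listed microRNA hosts 10 were in the table, and of the 9 tested 1 passed the looser rule in Exo against Con and none in the others. None of the listed genes for microRNA processing and action passed.

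Of 28 listed neural and developmental RNAs, 21 were in the table and 9 were members: Miat, Norad, Pantr1, Cerox1, Six3os1, Sox1ot, Sox2ot, Zeb2os and Oip5os1. Pantr1 was at 107, 96.5 and 93.9 CPM in Con, 93.4, 89.1 and 87.0 CPM in Exo, and 83.4, 79.2 and 90.9 CPM in pLV-Exo-Wnt5a. Con lay above both other groups, with a log2FC of -0.14 ± 0.08 for Exo and -0.23 ± 0.09 (Q = 0.561 in edgeR) for pLV-Exo-Wnt5a. Its partner Pou3f3, a transcription factor of upper cortical layers, had log2FC of -0.04, 0.05 and -0.00. Sox2ot ranged from 14.6 to 21.0 CPM and its log2FC was -0.08, 0.16 and 0.06, where Sox2, the progenitor factor whose gene it spans, had 0.26, -0.10 and 0.15. Six3os1 had -0.09, -0.19 and -0.29 beside -0.02, -0.05 and -0.08 for Six3, and Zeb2os had -0.24, 0.17 and -0.08 beside 0.31, -0.26 and 0.04 for Zeb2. The sign of the RNA differed from that of its partner in all 3 comparisons for Zeb2os, but no value of either passed the looser rule.

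Of the 9 listed imprinted RNAs, Rian and Peg13 were members. Peg13, transcribed from the paternal allele within Trappc9, was at 202, 179 and 182 CPM in Con, 174, 198 and 205 CPM in Exo, and 214, 215 and 194 CPM in pLV-Exo-Wnt5a. All its groups overlapped, and its log2FC was 0.04 ± 0.09, 0.12 ± 0.07 and 0.14 ± 0.09. Trappc9 had -0.08, 0.02 and -0.06.

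The members' spread within groups followed their counts, with a few exceptions. The SD of log2 CPM within groups had a median of 0.176 in members with mean counts of 200 to 500 (0.205 in coding genes of that range), 0.152 at 500 to 1000 (0.154 in coding genes) and 0.113 at 1000 or more (0.109 in coding genes). It was largest for Gt(ROSA)26Sor at 0.646, Malat1 at 0.577 and Kantr at 0.486, followed by Gm26917 at 0.412 and C630043F03Rik at 0.411. It was smallest for 5930403L14Rik at 0.0436, which went from 416 to 486 CPM over the 9 libraries. The highest value over the lowest was under 1.5 for 91 members and over 2 for 24, with a median of 1.46.

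**Figure D4:**
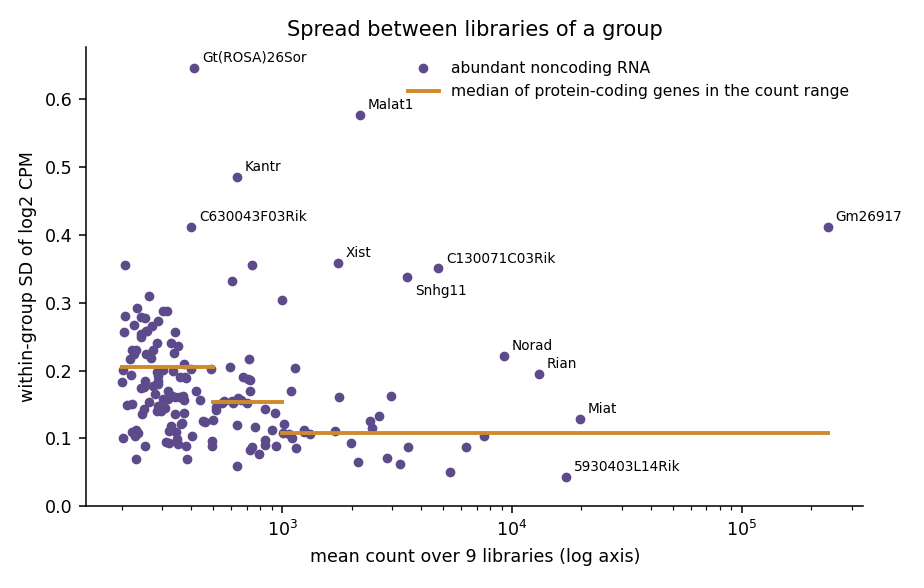
The within-group SD of log2 CPM (vertical axis) is plotted against the mean count over 9 libraries (horizontal log axis) for the 159 members, with the median of protein-coding genes in 3 count ranges as lines. Most members lie near the lines, while Gt(ROSA)26Sor, Malat1, Kantr and Gm26917 lie far above them.

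Single libraries also stood apart within their groups. Con replicate 1 held the highest value of 38 members (23.9%) and the lowest of 35 (22.0%), and Exo replicate 1 the highest of 28. Of the members, 11 were lowest in Con replicate 1 and highest in Exo replicate 1 (6.92%, against 10.8% of all genes). They were Gt(ROSA)26Sor (5.06-fold from 4.48 to 22.7 CPM), Kantr (4.37-fold), Malat1 (3.63-fold), C130071C03Rik (2.44-fold), C630043F03Rik (2.44-fold), 2900092D14Rik (2.37-fold), Chaserr (2.19-fold), and Cep83os, Mir100hg, 9330151L19Rik and 2810013P06Rik, at 1.52- to 1.55-fold. Of the 5 members with the largest spread within groups, all but Gm26917 are thus in this list. In the opposite direction 7 members were highest in Con replicate 1 and lowest in Exo replicate 1 (4.40%, against 7.74% of all genes), with Prdm16os at 77.1 against 49.8 CPM the most different of them and Zfas1, Epb41l4aos and 5930403L14Rik among them. Mitochondrial genes, of which 13 were in the table, took 0.722% of the counts in Con replicate 1, the lowest of all, and 1.06% in Exo replicate 1. Their mean share was 0.967% in Con, 0.956% in Exo and 0.988% in pLV-Exo-Wnt5a. Of the 12 tested, 11 were higher in Exo than in Con (median log2FC 0.28), and 10 were lower in pLV-Exo-Wnt5a than in Exo (median -0.29). None reached the study's threshold, and their part in the differences of the members was not tested.

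**Figure D5:**
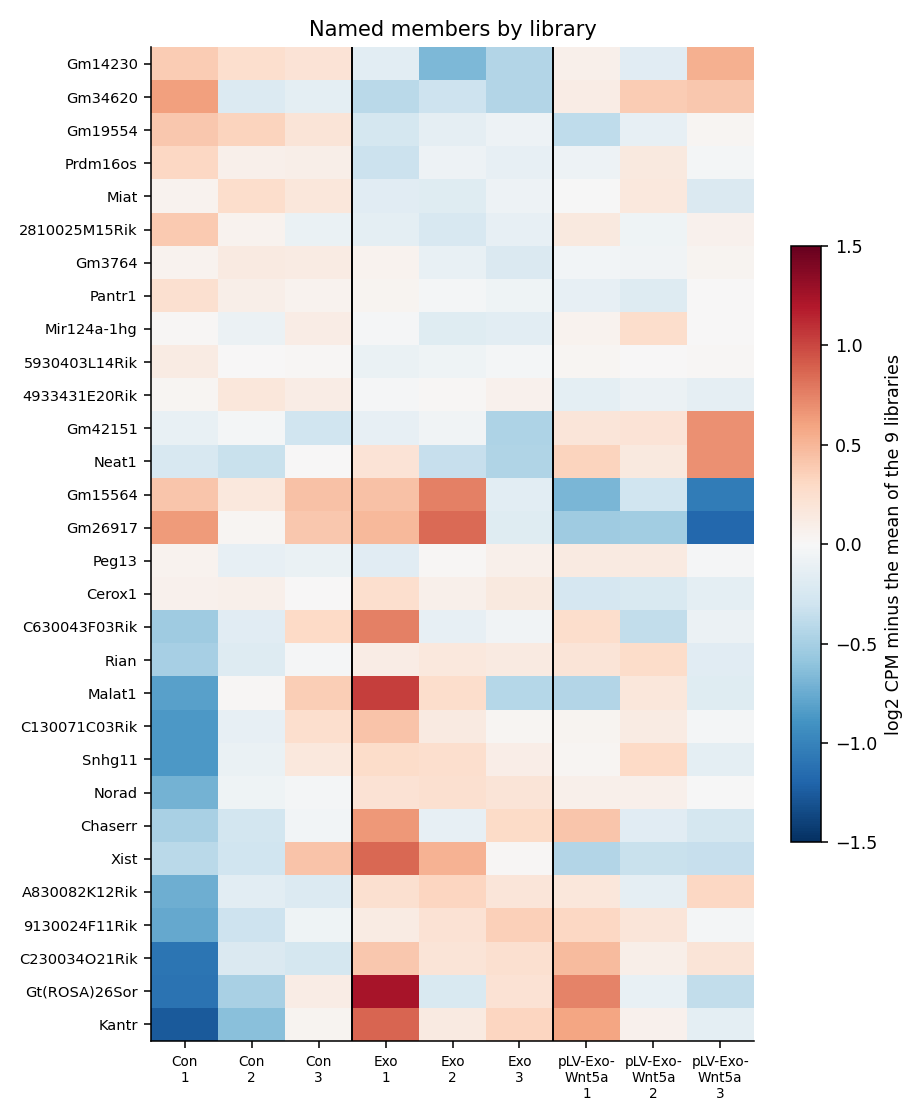
Colours give log2 CPM minus the mean of the 9 libraries (scale from -1.5 to 1.5) for 30 members named in the text, ordered from the lowest to the highest difference of Exo from Con, with libraries in columns. Kantr, Gt(ROSA)26Sor and Malat1 are lowest in Con replicate 1 and highest in Exo replicate 1, and Gm26917 and Gm15564 are low in the 3 pLV-Exo-Wnt5a libraries.

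A few markers of the cell types in culture also differed between the groups in which Gm26917 was lower. Between pLV-Exo-Wnt5a and Exo, the astrocyte filament gene Gfap had a log2FC of 0.86 (Q = 3.36e-05), the progenitor filament gene Vim 0.62 (Q = 0.0389) and the neuroblast gene Dcx -0.60 (Q = 0.0113) in edgeR. With these genes included, of 10 astrocyte markers 3 were higher and 7 lower with a median of -0.18, of 10 neuron markers 4 were higher and 6 lower with a median of -0.01, and of 10 neural stem cell markers 8 were higher and 2 lower with a median of 0.06. In Exo against Con, 9 of 10 neuron markers were higher (median 0.37) and 9 of 10 neural stem cell markers lower (median -0.12), and in pLV-Exo-Wnt5a against Con 8 of 10 neuron markers were higher (median 0.26). The summed astrocyte markers lay between 6891 and 8180 CPM in Con, 6738 and 6874 CPM in Exo, and 8198 and 8586 CPM in pLV-Exo-Wnt5a. The sum in pLV-Exo-Wnt5a was thus above both other groups, although 7 of the 10 markers were lower than in Exo. In these bulk libraries fewer cells of a type and less RNA per cell cannot be told apart. The 10 microglia markers summed to 12.1 to 13.9 CPM in Con, 6.84 to 7.53 CPM in Exo and 10.8 to 14.9 CPM in pLV-Exo-Wnt5a. The part of cell composition in the lower Gm26917, Xist and Cerox1, and in the differences of Miat, Rian, Norad and Kantr between Exo and Con, was not tested.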

How the data were processed

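RNA-seq libraries of NSCs from 3 groups (3 libraries each) were used. The values deposited by the authors are raw read counts per gene, in a table that does not list all genes. The paper names HISAT2 as the aligner, whereas the submitters' processing notes name Bowtie2, RSEM 1.3.1 and DESeq2 1.4.5. Genome build, strand setting and which tool made the deposited counts are not given in the sources used here. The paper describes TRIzol extraction and the labels a column kit. No column was left without a sample.

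Groups were taken from the treatment labels. For each comparison (6 libraries), genes were kept by filterByExpr, normalised by TMM and tested over the whole table in edgeR 4.0.16 (R 4.3.3; glmQLFTest), with Q from Benjamini-Hochberg adjustment. All 159 members passed the filter. Calls took the study's threshold (Q of 0.05, fold changes of 2 and 0.5) or the looser rule (p of 0.05, log2FC of 0.58 in size). The SE is the absolute log2FC over the square root of the F statistic. CPM used TMM factors over 9 libraries, and log2 CPM a prior count of 2. Shares were compared by exact permutation tests in scipy 1.17.1, two-sided.

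Named members were the 10 with the most counts, per comparison up to 4 in each direction with the smallest p among those without overlap, members of the role lists, and the 3 with the largest spread. Partners in the genome were given beside them. C630043F03Rik, Chaserr and the other members at opposite ends in Con replicate 1 and Exo replicate 1 were chosen after their values were seen. The members and lists were chosen with earlier results of these data known. Alternatives were RLE factors, DESeq2 1.42.0, 2 other filters, all 9 libraries in a fit, the replicate number as a block, other thresholds and denominators for shares, and leaving out each library. Leaving out Gm26917 and Gm15564 was added after seeing the data. Pairing by number was not apparent: deviations of same-numbered libraries correlated between -0.201 and 0.0634, and those of differently numbered libraries between -0.174 and 0.224. Whether libraries of different groups shared a batch cannot be told from these values. As a check on simulated data, 200 of 14914 genes were changed 4-fold in pLV-Exo-Wnt5a against Exo. There edgeR recovered 100% with 0 false calls and DESeq2 100% with 1. Only genes with higher counts were changed, and no member differed by more than 2.22-fold in that comparison. The check therefore does not show what the tests recover at changes of the size seen in the members.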

Additional observations from a re-analysis of the deposited data

How the results depend on the processing

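The edgeR counts of members past Q were 0 in all 3 comparisons and changed under few settings. In pLV-Exo-Wnt5a against Exo the count was 2 with DESeq2, 2 with no filter, 2 with the replicate block and 0 to 3 when a library was left out, the 3 without Exo replicate 3. For pLV-Exo-Wnt5a against Con there was 1 with DESeq2, 1 with no filter, 2 with the replicate block and 0 to 1 on leaving out a library, and for Exo against Con 0 to 1, the 1 in both cases without Con replicate 3. The labels give no pairing and none by number was apparent, so the block rests on the replicate number alone. Past the looser rule there were 2 to 15 members for Exo against Con and 3 to 8 for pLV-Exo-Wnt5a against Con when a library was left out, lowest without Con replicate 1 in both (and equally low without Con replicate 2 in the second) and highest without Con replicate 3. Without Gm26917 and Gm15564 the looser rule held for 3 in place of 7 against Exo and 3 in place of 5 against Con, a loss that includes the 2 left out. The other 2 lost against Exo were Neat1, whose log2FC went from 0.59 to 0.577, and Gm42151, from 0.59 to 0.578, both just under the limit of 0.58. The share of counts in members in Exo minus Con was 0.0653 percentage points and ran from -0.0616 without Exo replicate 2 to 0.212 without Exo replicate 3, with -0.00169 without Con replicate 2. In pLV-Exo-Wnt5a minus Con it was -0.368 and turned to 0.00720 without Gm26917. The members named for the smallest p kept their direction in the comparisons that named them, and in 31 cases a Q that had missed 0.05 passed it. In other comparisons small differences changed sign, as for Exo against Con in Gm26917 (-0.19 to 0.31), Gm15564 (-0.17 to 0.27) and Neat1 (-0.21 to 0.15), and for pLV-Exo-Wnt5a against Con in Gm14230 (-0.32 to 0.05). No member had fewer than 116 counts in a library, and 3 libraries a group limit what the tests can show.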

Other observations

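Below the threshold, 5317 noncoding genes had a mean count under 10, and the noncoding RNAs with the smallest p were mostly near 1 CPM or less. The following were chosen after their values were seen, from those with small p in edgeR, and none reached Q under 0.05. Dlx6os1, a transcript opposite the interneuron factor gene Dlx6, was at 3.35 ± 0.872 CPM in Con and 6.08 ± 0.983 CPM in Exo (SD, n = 3), a log2FC of 0.86 ± 0.23 with Q = 0.265 and no overlap. Gm26871 had a log2FC of 1.76 ± 0.43 in Exo against Con, from a mean of 0.443 to 1.50 CPM. BC065397 was at 1.85 ± 0.403 CPM in Exo and 3.27 ± 0.609 CPM in pLV-Exo-Wnt5a, a log2FC of 0.83 ± 0.25 with Q = 0.202 and no overlap.

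AY036118 had the smallest p of the noncoding genes under the threshold that were lower in pLV-Exo-Wnt5a than in Con. It was at 5.22 ± 1.41 CPM in Con, 3.69 ± 0.922 CPM in Exo and 2.34 ± 0.493 CPM in pLV-Exo-Wnt5a (SD, n = 3), a log2FC of -1.16 ± 0.26 with Q = 0.224 against Con. Its counts varied 3.52-fold between libraries. Gm26917 held between 1290 and 2282 counts for each count of AY036118, a 1.77-fold range.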
